A study of Mus musculus with 8 samples.

Results

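Gliomaspheres were compared with control astrocytes across all genes, using the 2 libraries labelled gliomaspheres and the 2 labelled control, which are 4 of the 8 libraries in the series. All cells were cultured astrocytes of C57BL/6J mice with floxed alleles of Yap and Taz (Yapf/f;Tazf/f), grown in DMEM-F12 with N-2 supplement, 20 ng/ml EGF and 20 ng/ml bFGF. Control astrocytes were not transformed, are labelled untreated and had no doxycycline. Gliomaspheres came from astrocytes transduced by lentivirus with HER2CA, an active form of HER2 under a doxycycline switch, with rtTA, which turns that switch, and with CreERT2, a recombinase that 4-hydroxytamoxifen (4OH TAM) activates. They grew in suspension with doxycycline, are labelled P1 and also carry DMSO as a condition, received no 4OH TAM, and were harvested 3 weeks after the experiment began. A second comparison used HER2CA astrocytes of day 15, with doxycycline and DMSO and also without 4OH TAM, as the other HER2CA cells with both floxed genes undeleted. Levels in HER2CA astrocytes given 1 µM 4OH TAM for 15 days, labelled as YAP/TAZ knockout, are given only for reference.

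The oncogene, doxycycline and growth in suspension set gliomaspheres apart from controls, and DMSO, passage and time in culture may have differed too, so their shares in a difference cannot be told apart. Whether the controls carry any of the constructs, whether the control culture was harvested at day 15, and whether replicates A and B were separate cultures is not stated. The p-values therefore reflect how far these libraries spread, and that spread may be technical. RNA came from whole cultures, so fewer cells of a type and less RNA per cell cannot be told apart.

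Gliomaspheres are clusters that glioma cells, or transformed neural cells, form when they are kept from attaching in serum-free medium with EGF and bFGF. HER2 (gene Erbb2) is a receptor tyrosine kinase of the EGF receptor family that pairs with its relatives and signals through the RAS-ERK and PI3K pathways. Cultured astrocytes are flat, adherent cells that carry glutamate transporters and glial filaments, while glioma cells often show features of cycling neural stem cells and of oligodendrocyte progenitors.

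The 4 libraries held 15517708 to 24530415 counts. Gliomaspheres B differed from the others in that the ribosomal RNA transcript Rn45s took 36.1% of its counts and Lars2 took 2.77%, against 0.984% and 0.0457% in gliomaspheres A. Both rows were removed before scaling, which left 9487800 counts in gliomaspheres B and 22286884 to 23773843 in the other 3. Some further transcripts, chosen after their values were seen, also differed between the gliomasphere libraries: Malat1 was at 1197 and 7281 CPM (counts scaled to a common library size) in A and B, Mir6236 at 52 and 4819, Rpph1 at 0.673 and 121, and Rps14 at 206 and 95. Among genes with a group mean of at least 5 CPM, 30 of 11120 differed by more than 2-fold between the gliomasphere libraries. Between the controls 2 of 10960 did. Of the 4 transcripts named here, Rps14 alone belongs to a list below, that of ribosomal proteins.

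Yap1 (GRCm38 chromosome 9, from 7931999 to 8004596) had levels of 156 and 148 CPM in controls A and B and of 139.7 and 146 CPM in gliomaspheres, and Wwtr1, which encodes TAZ, was at 192 and 183 against 193 and 188 CPM. Neither passed the test (edgeR adjusted p = 0.243 and 0.795), in a comparison in which neither gene was deleted. Mouse Erbb2 was at 35.5 and 34 CPM in controls and 22.8 and 25.7 CPM in gliomaspheres (log2 fold change −0.53, SE 0.0932, edgeR adjusted p = 0.00013). The construct's species and sequence are unstated, so these reads need not include HER2CA, and Erbb2 shares exon sequence with Mien1 on the opposite strand.

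Gliomaspheres and control astrocytes differed across most of the transcriptome. Of 13605 genes tested, 4283 (31.5%) rose and 4528 (33.3%) fell in gliomaspheres, which is 64.8% called in either direction, at an adjusted p under 0.05 by edgeR's quasi-likelihood test with Benjamini-Hochberg adjustment. Over all genes the log2 fold change had a median of −0.03. Both gliomasphere libraries lay above both controls for 5245 of the 13605 genes and below both for 5676, so groups without overlap were common. At least 2-fold, 1519 rose and 1208 fell, and at least 4-fold, 624 rose and 292 fell. Without gliomaspheres B, 4226 rose and 4412 fell. With a background this wide, a list whose shares are near 31.5% higher and 33.3% lower does not stand out, and each list below is given with its count and its median for that reading. The plot of list members shows all of these values.

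**Figure D1:**
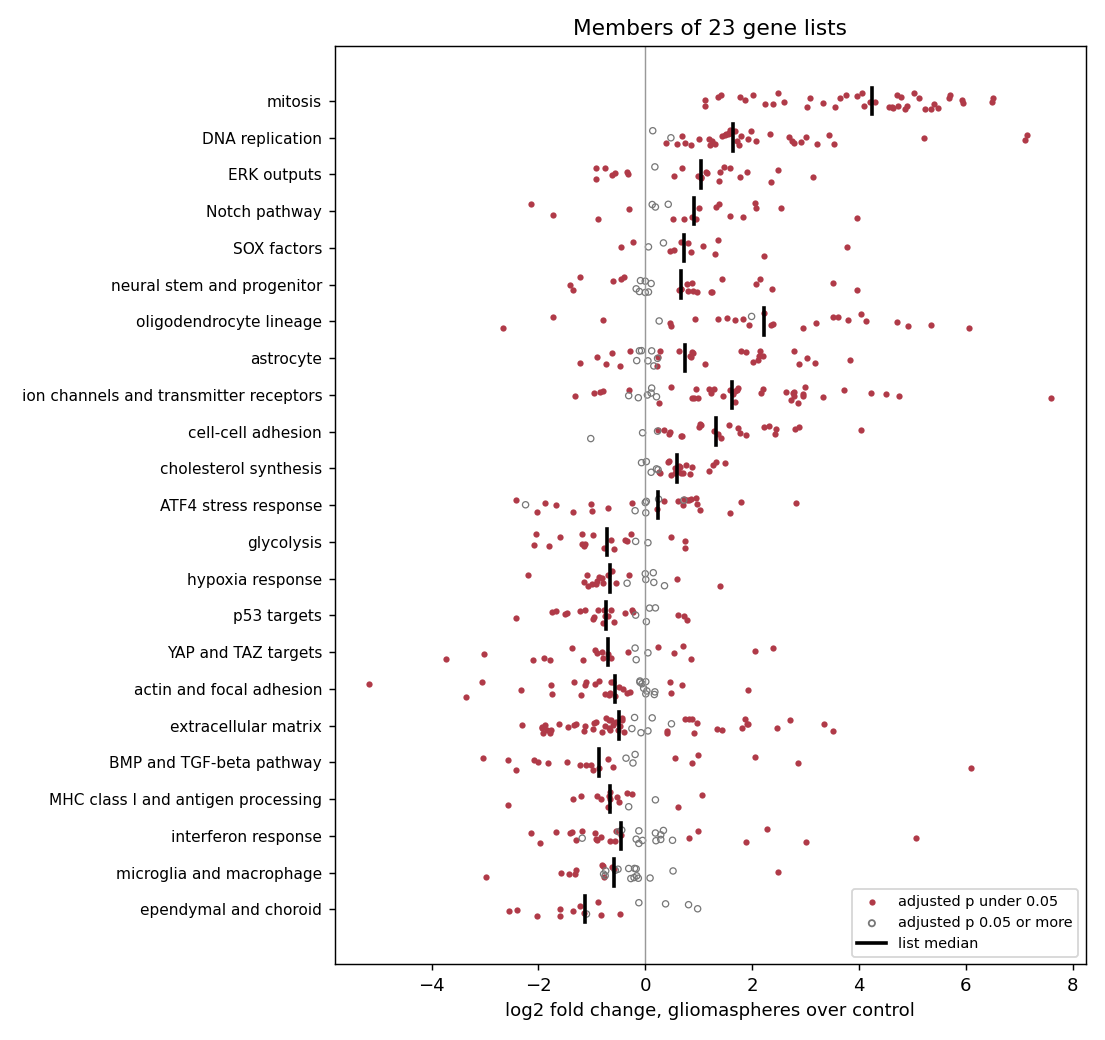
Log2 fold change of gliomaspheres over control (horizontal axis) for the members of 23 gene lists (rows). Each point is 1 gene, filled where the edgeR adjusted p was under 0.05, and the vertical bar is the list median. The mitosis list lies wholly to the right with a median of 4.25, and most members of the actin and focal adhesion list lie to the left with a median of −0.56.

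The largest increases joined cell-cycle genes with genes of neurons and synapses. Ska1, part of the complex that holds kinetochores to spindle microtubules, was at 0 counts in both controls and at 5.65 and 4.89 CPM in gliomaspheres, at least 83.7-fold higher with 3 counts taken for the control group. The neurofilament gene Nefl was at 0.25 and 0.18 CPM in controls and 60.3 and 44.1 CPM in gliomaspheres (log2 fold change 7.90, SE 0.283, edgeR adjusted p = 5.35e-12). Its exons overlap those of Nefm on the opposite strand. With the counting's strand setting unstated, reads of such pairs may be split or shared. Grm5 (chromosome 7, 87584168 to 88134907), which encodes the metabotropic glutamate receptor mGluR5, was at 1.04 and 1.08 CPM in controls and 204 and 209 CPM in gliomaspheres, 194-fold higher (log2 fold change 7.60, SE 0.167, edgeR adjusted p = 2.04e-13). The 2 groups lay far apart for all 3 genes, and lack of overlap was a condition for choosing them. Lpo, the gene of the secreted enzyme lactoperoxidase, rose from 0.541 and 0.629 CPM to 52.6 and 57.9 CPM (log2 fold change 6.54, SE 0.184). Neto1, which encodes an auxiliary subunit of kainate receptors, rose from 0.166 and 0.224 CPM to 18.9 and 19.1 CPM. Serpinb11, a serpin gene, had 450 counts over both gliomasphere libraries and 3 over both controls, a ratio of 220.3 after scaling (95% interval 74.9 to 1072, counting error only). The sialyltransferase gene St6gal2 had 182 counts against 1, a ratio of 267 (47.4 to 10617). The other 5 of the 12 largest increases, Tk1, E2f8, Mki67, Ccna2 and E2f7, were cell-cycle genes and are described with their lists.

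The largest decreases included smooth-muscle, matrix-associated and lipid-droplet genes. Cnn1 (chromosome 9, 22099216 to 22109630), which encodes the actin-binding protein calponin of smooth muscle, fell from 24.3 and 23.7 CPM in controls to 0.852 and 0.217 CPM in gliomaspheres, 36.1-fold (log2 fold change −5.17, SE 0.231, edgeR adjusted p = 4.41e-11). Ogn, the gene of the matrix proteoglycan mimecan, fell from 9.74 and 7.41 to 0.179 and 0.651 CPM (log2 fold change −4.72, SE 0.332). The perilipin gene Plin4, whose product coats lipid droplets, fell from 147 and 143 to 6.59 and 7.6 CPM (log2 fold change −4.39, SE 0.138). In each case both controls stood above both gliomasphere libraries by more than 10-fold, where lack of overlap was a condition of the choice. Nov and Cyr61, which encode secreted matrix-associated proteins of the CCN family, fell from 19.4 and 18.1 to 0.762 and 1.19 CPM and from 308 and 283 to 20.9 and 24.5 CPM. Adamtsl4, a gene for a microfibril-associated secreted protein, fell 13.4-fold, from 346 and 355 to 24.7 and 28.4 CPM. Crb2, a gene of the Crumbs polarity complex, fell 11.4-fold from 85.7 and 83.2 to 6.95 and 8.25 CPM. The remaining 5, Piwil2, Cyb561, Ddn, Fam26e and Akr1c14, had log2 fold changes of −4.42, −4.10, −3.84, −3.68 and −3.50.

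Opposite-strand exon overlap of the same kind touches further genes named here. In GENCODE it joins Ube2c with Tnnc2, Ccna2 with Exosc9, Tk1 with Afmid, Cdk4 with Tspan31, Plin4 with Hdgfl2, Crb2 with Dennd1a, Tagln with Pcsk7, Gpr17 with Lims2 and Lrig1 with Slc25a26. It also joins Junb with Prdx2, P2ry12 with Med12l, Bmp6 with Txndc5, Vcl with Ap3m1, Rb1 with Rcbtb2, Itga7 with Mettl7b, Csf1r with Hmgxb3, Avil with Tsfm and Nrip2 with Itfg2. Ccnd1, Olig1 and Pdgfra are among those that overlap other models on the opposite strand, and Foxm1, Ftl1 and Akr1c14 overlap models on their own strand. Values of these genes are uncertain to that extent.

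Genes of cell division rose as a block. All 42 measured members of the mitosis list rose, against 31.5% of all genes, with a median log2 fold change of 4.25. DNA replication followed with 36 of 38 higher and 0 lower, and a median of 1.64. Summed over the mitosis list, controls held 205 and 201 CPM and gliomaspheres 2217 and 2287 CPM. For replication the sums were 497 and 499 CPM against 1588 and 1604 CPM.

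Dividing cells switch on replication genes from late G1, largely through E2F factors, and mitotic genes later, in large part through MuvB-FOXM1 complexes. Mitotic promoters are known for the CHR element (TTTGAA) and for CCAAT boxes, to which the factor NF-Y binds. To show these letters, the promoters of Ube2c, Kif11 and Top2a, among the members of the mitosis list with large increases, and of Mcm5 and Mcm6 of the replication list are printed 5′ to 3′ on the gene's strand. They come from RefSeq on GRCm38.p6. Capitals mark TTTGAA or its reverse complement TTCAAA and CCAAT or its reverse complement ATTGG in the first 3, and the E2F words TTTCCCGC or TTTGGCGC, on either strand, in the last 2.
Ube2c (chr2:164769809-164769928, plus strand): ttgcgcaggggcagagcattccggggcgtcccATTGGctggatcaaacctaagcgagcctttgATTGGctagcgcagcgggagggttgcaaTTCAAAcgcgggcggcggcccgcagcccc
Kif11 (chr19:37376262-37376381, plus strand): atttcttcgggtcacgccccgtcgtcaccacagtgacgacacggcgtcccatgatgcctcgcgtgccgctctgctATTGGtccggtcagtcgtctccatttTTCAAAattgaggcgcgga
Top2a (chr11:99024190-99024309, minus strand): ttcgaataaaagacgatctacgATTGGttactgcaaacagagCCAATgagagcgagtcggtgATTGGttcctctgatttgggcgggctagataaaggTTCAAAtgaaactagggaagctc
Mcm5 (chr8:75109309-75109508, plus strand): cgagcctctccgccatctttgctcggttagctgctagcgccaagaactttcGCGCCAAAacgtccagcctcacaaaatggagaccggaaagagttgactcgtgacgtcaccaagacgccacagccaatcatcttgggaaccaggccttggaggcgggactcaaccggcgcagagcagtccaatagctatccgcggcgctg
Mcm6 (chr1:128359706-128359905, minus strand): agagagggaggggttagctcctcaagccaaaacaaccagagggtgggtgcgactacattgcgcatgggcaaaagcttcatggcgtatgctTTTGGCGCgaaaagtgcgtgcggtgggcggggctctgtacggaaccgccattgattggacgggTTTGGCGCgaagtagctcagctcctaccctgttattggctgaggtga
Within windows of 250 bases before to 50 after the RefSeq start, TTTGAA stood on either strand in 24 of 34 mitosis promoters (70.6%), against 13.8% of the 10338 promoters of the table. CCAAT stood in 79.4% of them against 42.9%. An E2F word was present in 10 of 32 replication promoters (31.2%), in 0 of 34 mitosis promoters and in 3.35% of all. Neither TTTGAA nor an E2F word contains CCAAT, and neither contains the other. A match of letters is a description and no evidence that a factor was bound in these cells.

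Among cyclins, kinases and checkpoint genes, Ccna2 (cyclin A2), which carries cells through S phase into mitosis, rose from 1.42 and 0.988 CPM to 102 and 117 CPM (log2 fold change 6.49, SE 0.148, edgeR adjusted p = 2.04e-13). Mki67 (chromosome 7, 135689784 to 135716361), the gene of the proliferation marker Ki-67, rose from 3.12 and 2.87 to 263 and 282 CPM (log2 fold change 6.50, SE 0.178, edgeR adjusted p = 5.98e-13). Bub1, a kinase of the spindle checkpoint, rose from 0.416 and 0.404 to 25.3 and 26.3 CPM. Foxm1, the transcription factor that drives late-cycle genes, rose 29-fold from 2.08 and 1.98 to 58.7 and 59.6 CPM, and Plk1, a kinase needed for mitotic entry, rose 23.5-fold. Both gliomasphere libraries stood above both controls for each, as they did for 5245 of the 13605 genes tested. The spindle motor gene Kif11 (promoter above) rose from 2.66 and 2.83 to 70.3 and 66.2 CPM, and Ube2c, which encodes a ubiquitin-conjugating enzyme that helps cells leave mitosis, from 1.37 and 1.17 to 44.6 and 53.1 CPM. Top2a, which untangles chromosomes, rose from 13 and 11.2 to 238 and 241 CPM. The smallest changes in this group included Mad2l1 of the spindle checkpoint, 15.8 and 15.1 against 34.4 and 32.2 CPM (log2 fold change 1.12, SE 0.121).

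Replication genes rose over a wider range. The thymidine kinase gene Tk1, which salvages thymidine for DNA, rose from 0.0416 and 0.18 to 16.1 and 16.3 CPM (log2 fold change 7.15, SE 0.322). E2f8, an atypical E2F that represses other E2F targets, rose from 0.125 and 0.0898 to 15.1 and 16.4 CPM, and its relative E2f7, outside the list, from 0.166 and 0.0449 to 8.97 and 9.66 CPM. Of the helicase subunits with printed promoters, Mcm5 rose 37-fold from 1.46 and 1.84 to 61.9 and 59.9 CPM, and Mcm6 rose 3.94-fold from 22.2 and 20.7 to 79.7 and 90.2 CPM. Rrm2, a subunit of ribonucleotide reductase, rose from 12.4 and 14.7 to 105 and 114 CPM. Pcna, the sliding clamp of DNA polymerase, rose 2.31-fold from 63 and 54.5 to 141 and 130.4 CPM. E2f1 and the GINS subunit gene Gins3 did not pass, with log2 fold changes of 0.14 (edgeR adjusted p = 0.34) and 0.48 (edgeR adjusted p = 0.0531).

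The G1 machinery upstream of these genes changed in both directions. Of 16 genes, 6 rose and 7 fell, not far from the shares of all genes. Ccnd1 (cyclin D1), the partner of CDK4 and CDK6, rose from 540.1 and 531 CPM to 2042 and 1976 CPM (log2 fold change 1.91, SE 0.0714, edgeR adjusted p = 6.98e-12). Ccnd2 rose from 933 and 896 to 1834 and 1961 CPM and Cdk4 from 157 and 165 to 274 and 295 CPM. Among inhibitors, Cdkn1a (p21), which blocks CDK2 and is induced by p53, fell from 1554 and 1497 to 523 and 553 CPM (log2 fold change −1.50, SE 0.0808, edgeR adjusted p = 3.59e-10). Cdkn1b (p27), Cdkn1c (p57), Cdkn2b (p15) and the retinoblastoma gene Rb1 also fell, with log2 fold changes of −0.68, −1.73, −0.89 and −0.80. Cdkn2a, which encodes both p16 and p19ARF, fell by 0.35 on the log2 scale, but the groups came close, at 81.4 and 87.5 against 75.7 and 54.4 CPM. Among inhibitors Cdkn2c (p18) went the other way and rose from 15.4 and 16.3 to 51.5 and 44.7 CPM. Cdk6 was at 6.99 and 5.66 against 5.7 and 7.06 CPM and did not pass.

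Genes that p53 activates were mostly lower, with 19 of 26 fallen and 4 risen (33.3% and 31.5% of all genes) and a median log2 fold change of −0.73. Trp53 itself was at 77.5 and 81.1 against 67.1 and 88.8 CPM, with overlapping groups. Besides Cdkn1a, the death receptor gene Fas fell from 79.3 and 74.2 to 24.4 and 20.5 CPM, the cyclin G1 gene Ccng1 from 1292 and 1258 to 657 and 653 CPM, and Phlda3, an inhibitor of AKT, from 328 and 326 to 145 and 135 CPM. Mdm2, which marks p53 for degradation, fell by 0.64 on the log2 scale (SE 0.0904). Gtse1 went the other way (25.5 and 26.7 against 46.9 and 43 CPM); it is known as a mitotic gene that restrains p53.

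**Figure D2:**
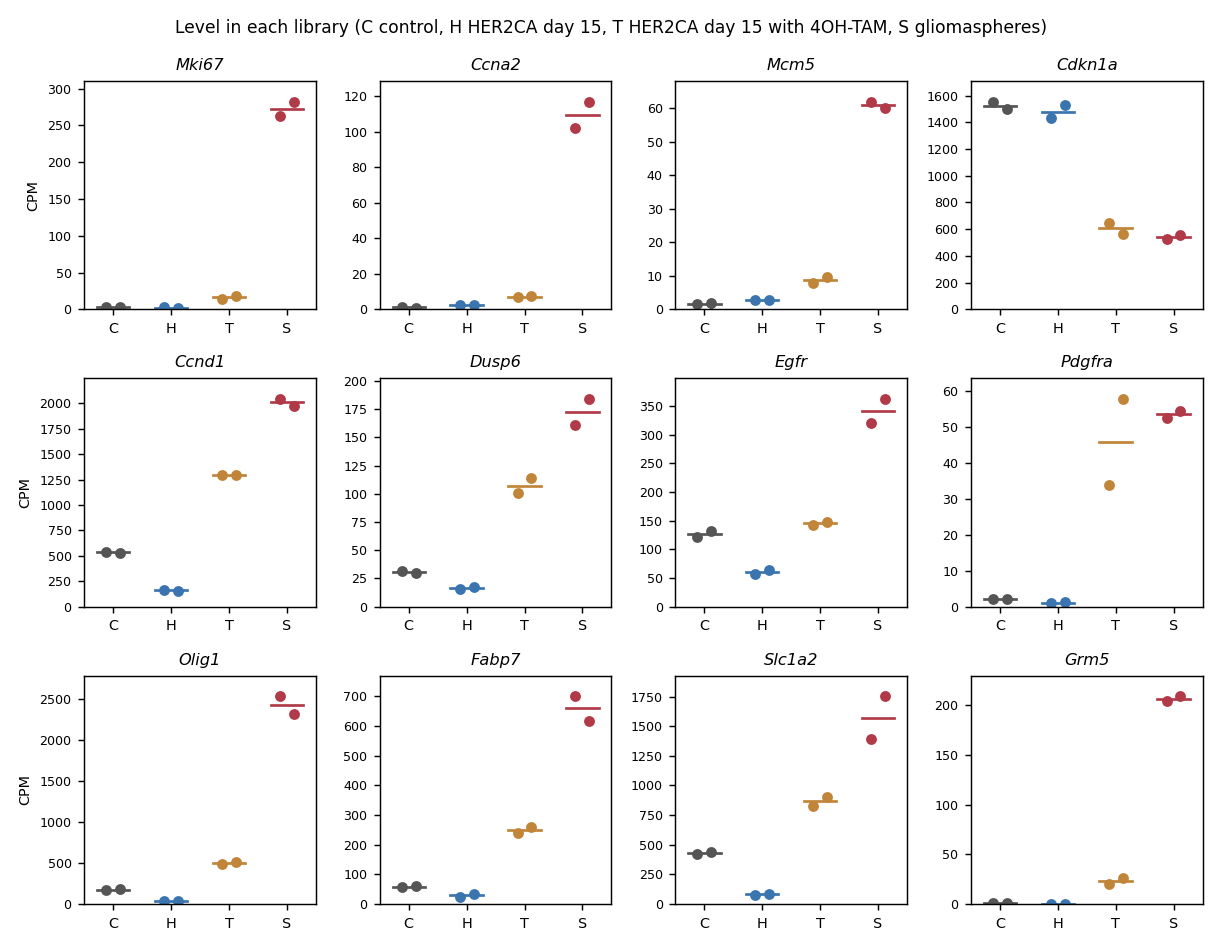
Level in CPM (vertical axes, from 0) of 12 genes in each of the 8 libraries, with 2 points for each group and a line at their mean. C is control, H is HER2CA day 15, T is HER2CA day 15 with 4OH TAM and S is gliomaspheres. Mki67, Ccna2 and Mcm5 are near 0 in C and highest in S, Cdkn1a is at 1554 and 1497 CPM in C and at 523 and 553 CPM in S, and Grm5 stands at 204 and 209 CPM in S.

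Growth factor receptors changed in both directions, and the outputs of ERK signalling leaned upward. ERK outputs are genes that the kinases ERK1 and ERK2 induce, including their own feedback inhibitors. Of 24 such genes 16 rose and 7 fell, with a median log2 fold change of 1.05. Their summed level was 2929 CPM in each control and 6429 and 6733 CPM in gliomaspheres. The cyclin genes Ccnd1 and Ccnd2 are members and make up most of that rise, from 540.1 and 531 to 2042 and 1976 CPM and from 933 and 896 to 1834 and 1961 CPM. Among the feedback regulators 7 of 9 rose. Spry1, a Sprouty inhibitor of receptor signalling, rose from 5.45 and 6.06 to 47.3 and 54.1 CPM (log2 fold change 3.13, SE 0.121), and Dusp6, a phosphatase that switches off ERK, from 31.4 and 29.9 to 161 and 184 CPM (log2 fold change 2.48, SE 0.095, edgeR adjusted p = 8.76e-12). Of the transcription factors, Myc rose from 22 and 23 to 106 and 125 CPM, Etv5 from 195 and 206 to 526 and 588 CPM and Etv4 from 57.1 and 60.1 to 147 and 159 CPM. Against these, the AP-1 gene Fos fell from 175 and 216 to 95.7 and 109.8 CPM and Junb from 62 and 61.2 to 38.3 and 34.5 CPM.

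In the list of ErbB and other growth factor receptors, ligands and inhibitors, 11 of 37 rose and 15 fell, close to the shares of all genes. Egfr, the EGF receptor and a partner of HER2, rose from 121 and 131 to 320.3 and 362 CPM (log2 fold change 1.43, SE 0.0827, edgeR adjusted p = 8.13e-10). Erbb3, the partner that lacks strong kinase activity of its own, fell from 6.33 and 5.57 to 0.583 and 0.76 CPM, while Erbb4 rose from 2.5 and 1.93 to 14.6 and 16.8 CPM. Thus the 4 members of the family did not move together. Pdgfra, the PDGF receptor that marks oligodendrocyte progenitors and is amplified in some gliomas, rose 26.2-fold from 2 and 2.07 to 52.4 and 54.6 CPM (log2 fold change 4.71, SE 0.243, edgeR adjusted p = 2.33e-10), and its ligand gene Pdgfa fell from 55.4 and 57.1 to 20.5 and 22.5 CPM. Met, the receptor for hepatocyte growth factor, fell from 103 and 95.2 to 26.8 and 25.7 CPM. Of the ligands, Fgf1 rose from 23.3 and 25.2 to 152 and 144 CPM, and Nrg1, a ligand for ERBB3 and ERBB4, fell from 6.08 and 5.39 to 1.08 and 0.868 CPM. Lrig1, which lowers ErbB receptor levels at the cell surface, rose from 401 and 483 to 819.7 and 812 CPM.

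The Notch pathway, which keeps neural progenitors undifferentiated through Hes factors, had 13 of 20 measured genes higher and 4 lower, with a median of 0.91. Hes5, a direct Notch target of neural stem cells, rose from 0.458 and 0.314 to 6.37 and 5.75 CPM (log2 fold change 3.96, SE 0.263) and Hes1 from 4.58 and 5.57 to 18.8 and 24.5 CPM. Nrarp, a target that feeds back on Notch, rose 5.82-fold. The ligand genes Dll1 and Dll3 rose, by 1.00 and 2.06 on the log2 scale, while the ligand gene Jag2 fell by 2.13. Receptor genes changed less, with Notch3 at 90.4 and 91.9 against 150.3 and 149 CPM and Notch1, which did not pass, at 429 and 426 against 451 and 483 CPM.

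Genes of secreted BMP and TGF-beta signals were mostly lower: 14 of 23 fell and 6 rose, with a median of −0.87. The BMP ligand gene Bmp6 fell from 19.3 and 16.5 to 2.78 and 3.47 CPM, Tgfb3 from 53.4 and 54.2 to 16.5 and 13.2 CPM and Tgfb1 from 40.3 and 38.6 to 14.4 and 14.2 CPM. Id1, Id3 and Id4, which BMP signals induce, fell by 1.11, 0.60 and 1.22 on the log2 scale. Rises came from the BMP antagonist gene Grem1, from 0.375 and 0.18 to 21.3 and 17.4 CPM (log2 fold change 6.10, SE 0.233), and from Bmp7, from 4.7 and 5.57 to 36.9 and 37.7 CPM. Fst, an antagonist of activins, fell from 16.5 and 15.4 to 1.88 and 2.06 CPM, so antagonists did not share a direction. The Wnt list was split, with 11 of 26 higher and 10 lower, or 6 lower without gliomaspheres A. Within it the Wnt target Axin2 rose from 27.6 and 28.1 to 52.7 and 51.1 CPM and the Wnt-inactivating enzyme gene Notum fell from 5.41 and 5.88 to 0.762 and 0.977 CPM. Hedgehog genes had 3 of 10 higher and 3 lower.

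Markers of oligodendrocyte progenitors were higher in gliomaspheres. Of the 16 measured, 15 rose and 1 fell, with a median log2 fold change of 2.67, and their summed level went from 699.5 and 765 CPM to 4091 and 3770.3 CPM. Olig1, a transcription factor of the lineage, rose from 166 and 182 to 2527 and 2314 CPM (log2 fold change 3.80, SE 0.119, edgeR adjusted p = 1.52e-12), and Olig2, which specifies the lineage and is found in many gliomas, from 134 and 148 to 797 and 683 CPM. Lhfpl3 rose from 4.74 and 7.77 to 76.6 and 74.1 CPM. Gpr17 and Bcas1, which mark progenitors on their way to differentiation, rose from 1.58 and 2.42 to 17.7 and 18.9 CPM and from 0.583 and 0.898 to 13 and 12.9 CPM. Sox10, which progenitors and oligodendrocytes both use, rose from 4.12 and 6.29 to 25.1 and 23.1 CPM. Cspg4 (NG2), a surface proteoglycan of progenitors, was the exception and fell from 149 and 161 to 88.3 and 91.2 CPM (log2 fold change −0.79, SE 0.0725).

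Genes of myelin and mature oligodendrocytes gave a mixed picture, with 7 of 11 higher and 2 lower. Omg, which encodes oligodendrocyte-myelin glycoprotein, rose from 0.458 and 0.943 to 42.2 and 50.9 CPM (log2 fold change 6.05, SE 0.214), and Ugt8a, the enzyme for galactosylceramide, from 0.125 and 0.135 to 5.78 and 5.1 CPM. Mbp, the myelin basic protein gene, fell from 49 and 46.1 to 7.49 and 7.6 CPM, and Tspan2 from 43.5 and 42.4 to 12.7 and 13.5 CPM. Myrf, the regulator of myelin genes, was at 4.16 and 4.8 against 5.16 and 5.75 CPM and did not pass.

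SOX factors, which set progenitor and glial identity, rose in 10 of 14 cases and fell in 2 (1 without gliomaspheres B). Sox3 rose from 2.29 and 2.07 to 33.7 and 25.4 CPM, and Sox8 from 71 and 80.5 to 195 and 196 CPM. Sox2, the neural stem cell factor, fell from 457 and 449 to 349 and 313 CPM, and Sox9 was level at 306 and 324 against 325 and 331 CPM (edgeR adjusted p = 0.484). In the neural stem and progenitor list, 16 of 29 rose and 6 fell, with a median of 0.66 and summed levels of 11939 and 12971 CPM against 16558 and 16953 CPM. Fabp7, the fatty-acid binding protein of radial glia, rose from 55.8 and 58.9 to 699.8 and 618 CPM (log2 fold change 3.52, SE 0.112, edgeR adjusted p = 1.52e-12). Ptprz1, a receptor phosphatase of radial glia and glioma cells, rose from 1063 and 1059 to 4879 and 4551 CPM, and Hmga2, a chromatin protein of young stem cells, from 12.4 and 11.3 to 62.6 and 60.1 CPM. The filament gene Nes rose 1.58-fold. Members that fell included Prom1 (CD133), a surface marker used to isolate glioma stem cells, from 58.3 and 57 to 21.7 and 23.6 CPM, and Vim, from 5802 and 6509 to 3751 and 4301 CPM.

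Among 32 genes reported in glioma 15 rose and 12 fell, with a median of 0.01. Beyond those above, Plau, the urokinase gene, rose from 7.53 and 9.02 to 41.9 and 50.9 CPM and Ezh2, the histone H3 lysine methyltransferase of Polycomb, from 16 and 14.1 to 54.3 and 55.9 CPM. Lgals3 (galectin-3) fell from 97.6 in both controls to 9.78 and 11.7 CPM, Pdpn (podoplanin) from 188 and 189 to 60.7 and 67.7 CPM, and Idh2, the mitochondrial isocitrate dehydrogenase, from 355 and 383 to 129 CPM in both. Cd44, a marker of mesenchymal glioma cells, did not pass, at 427 and 442 against 364 and 410.1 CPM.

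Astrocyte genes as a group were not lost in gliomaspheres. Their summed level was 25247 and 29722 CPM in controls and 27822 and 28671 CPM in gliomaspheres, which overlap. Apoe, which fell as given below, makes up a large part of these sums. Of 34 genes 21 rose and 6 fell, with a median log2 fold change of 0.74. Among transporters and channels 9 of 12 rose. Slc6a11, the astrocytic GABA transporter GAT-3, rose from 17.6 and 24.9 to 290.3 and 319 CPM (log2 fold change 3.84, SE 0.134, edgeR adjusted p = 4.05e-12). Slc1a2 (GLT-1), which clears most synaptic glutamate, rose from 418 and 438 to 1391 and 1753 CPM, Kcnj10 (Kir4.1), which buffers potassium, from 139 and 159 to 659 and 708 CPM, and the bicarbonate cotransporter gene Slc4a4 from 194 and 216 to 832 and 824 CPM. Aqp4, the water channel of astrocyte endfeet, changed little, at 1306 and 1486 against 1675 and 1566 CPM (log2 fold change 0.22, edgeR adjusted p = 0.0219).

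Of the astrocytic enzymes, Aldoc (aldolase C) rose from 106 and 142 to 832 and 879 CPM and Glul, which makes glutamine from glutamate, from 237 and 273 to 432 and 478 CPM. The metallothionein gene Mt3 fell from 220 and 238 to 104 and 91.2 CPM. Gfap, the glial filament protein, rose from 1057 and 1543 to 2798 and 2855 CPM (log2 fold change 1.12, SE 0.122), and S100b from 10.5 and 13.4 to 102 and 92.2 CPM. Secreted lipoproteins went the other way, with Apoe at 11022 and 13301 against 6707 and 6263 CPM and Clu at 1310.5 and 1445 against 929 and 869 CPM. In the reactive astrocyte list 14 of 34 rose and 16 fell. Cd109 fell from 3101 and 2994 to 658 and 652 CPM (log2 fold change −2.22, SE 0.0758), Emp1 from 325 and 324 to 60.9 and 60.2 CPM and the small heat-shock gene Hspb1 from 44.9 and 39.1 to 6.05 and 4.23 CPM, whereas Timp1 rose from 37.5 and 45.4 to 72.4 and 84.2 CPM.

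Receptors and channels for neurotransmitters and ions rose broadly. Of 44 measured, 33 rose and 5 fell, with a median log2 fold change of 1.62 and summed levels of 1334 and 1416 CPM against 3188 and 3362 CPM. Besides Grm5, the NMDA receptor subunit gene Grin3a rose from 1.04 and 1.93 to 33.5 and 34.1 CPM, the kainate receptor gene Grik2 from 1.83 and 2.38 to 19.8 and 22.7 CPM, and the AMPA receptor genes Gria2 and Gria4 from 17.4 in both controls to 110.4 and 104 CPM and from 10.4 and 10.2 to 77.8 and 71.5 CPM. AMPA receptors were not uniform, since Gria3 was at 157 and 161 against 171 and 175 CPM and did not pass. Among channels, Kcnma1 (the BK channel) rose from 2.12 and 2.42 to 39.6 and 46.5 CPM, and Kcnd2 (Kv4.2) from 3 and 3.82 to 43.1 and 46.5 CPM. Members that fell were Adra1a, an adrenergic receptor gene, from 46 and 43.9 to 17.8 and 18.7 CPM, the GABA-A subunit gene Gabrb1, the purine receptor gene P2ry2, Kcnk2 and Clcn2.

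Of 20 measured neuronal genes 12 rose and 7 fell. Nefm rose with Nefl, with which it shares exon sequence, from 1.66 and 1.89 to 42.8 and 36.3 CPM, and Gap43, a growth-cone protein gene also used by glial progenitors, from 14.7 and 16.9 to 94 and 89.5 CPM. Dcx, a marker of young neurons, had 95 counts in gliomaspheres against 1 in controls. Slc17a7, the vesicular glutamate transporter, and Stmn2, a microtubule regulator of growing neurites, fell, from 2.41 and 2.51 to 0.314 and 0.217 CPM and from 51.3 and 52.6 to 4.75 and 5.43 CPM. Axon guidance genes had 17 of 38 higher and 12 lower. The netrin receptor gene Dcc rose from 0.291 and 0.0898 to 10.5 and 11.4 CPM and its ligand gene Ntn1 from 67.3 and 69.3 to 178 and 190 CPM, while the ephrin gene Efna1 fell from 28.6 and 30.2 to 3.05 and 2.82 CPM.

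Genes that join cells to each other rose, while receptors for the substrate were split. Genes of cadherins, protocadherins, junction proteins and neural adhesion molecules rose in 23 of 26 cases and fell in 0, with a median of 1.33. Cdh10 rose from 11.9 and 15 to 74 and 73.2 CPM, Cdh20 from 34.1 and 41 to 177 and 173 CPM and Pcdh17 from 23.3 and 22.9 to 114 and 117 CPM. Tjp1 (ZO-1), the scaffold under tight and adherens junctions, rose from 169 and 177 to 416 and 431 CPM, and N-cadherin, Cdh2, by a smaller step from 246 and 248 to 316 and 313 CPM. Integrins, the receptors for matrix, had 7 of 15 higher and 7 lower. Itga3 and Itga7, which bind laminins, fell from 68.2 and 64.4 to 16 and 13.1 CPM and from 471 and 497 to 189 and 191 CPM, while Itgav rose from 534 and 503 to 964 and 966 CPM and Itga4 from 4.37 and 2.78 to 15.5 and 16.9 CPM.

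In the actin and focal adhesion list 22 of 35 fell and 4 rose, with a median of −0.56. Contractile and actin-binding members accounted for 17 of the falls, out of 21 measured. Acta2, smooth-muscle actin, fell from 227 and 193 to 19.2 and 22.5 CPM (log2 fold change −3.36, SE 0.119, edgeR adjusted p = 4.87e-12), and Tagln (transgelin) from 157 and 131 to 18.3 and 16 CPM. The cross-linkers Actn1 and Flna fell from 167 and 166 to 48.6 and 50.2 CPM and from 968 and 899 to 434 and 421 CPM. Vcl (vinculin), a link between integrins and actin, fell by 0.94 on the log2 scale. The focal adhesion gene Tes was among the 4 that rose, from 2.08 and 1.48 to 6.82 and 6.84 CPM.

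YAP and TAZ are co-activators that respond to cell attachment and tension and induce genes such as Cyr61 and Ctgf through TEAD factors. Although Yap1 and Wwtr1 did not pass, 14 of 23 of their reported targets fell and 6 rose, with a median log2 fold change of −0.69. Their summed level changed little, from 2321 and 2229 CPM in controls to 2142 and 2179.8 CPM in gliomaspheres. In that sum the rise of the abundant member Igfbp3, given below, offset much of the fall in others. The lower median was not particular to gliomaspheres, since HER2CA day 15 over control had a median of −0.63. Against day 15, 11 targets were higher in gliomaspheres and 9 lower, with a median of 0.08. Cyr61 fell 13.2-fold, as given above. Gadd45b fell from 27.1 and 25.4 to 3.41 and 2.93 CPM, Amotl2, which itself binds YAP, from 78.9 and 65.1 to 18.2 and 14.5 CPM, and Ajuba from 60.2 and 56.1 to 14.8 and 16.8 CPM. Ctgf fell less, from 18.6 and 15.4 to 9.01 and 11 CPM (log2 fold change −0.80, SE 0.14). Igfbp3 rose from 187 and 176 to 761 and 751 CPM, and Birc5, which is also a mitotic gene, from 4.04 and 4.22 to 21.2 and 22.5 CPM. Among 18 genes of the Hippo pathway 5 rose (3 without control B) and 5 fell. TEAD genes diverged, with Tead1 at 193 and 179.7 against 391 and 479 CPM and Tead4 at 9.53 and 10.1 against 1.12 and 0.977 CPM. The kinase gene Lats2, also a YAP target, fell from 96.7 and 88.2 to 52.3 and 44.9 CPM, and Nf2 (merlin), an upstream activator of the pathway, rose from 129 and 133 to 256 and 264 CPM.

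The extracellular matrix changed by class. Of 23 collagens and laminins 18 fell and 4 rose, with a median of −0.67. Col3a1 fell from 130.1 and 126 to 32.5 and 34.5 CPM, Col6a1 from 568 and 552 to 168 and 157 CPM and Col1a1 from 45.3 and 43.5 to 11.5 and 12.2 CPM. Col16a1 rose from 33.9 and 36.5 to 96.9 and 92.2 CPM. Glycoproteins, proteoglycans and enzymes were even, with 13 of 31 higher and 13 lower. Fn1 (fibronectin) fell from 5084 and 5002 to 1503 and 1332 CPM (log2 fold change −1.83, SE 0.0825, edgeR adjusted p = 4.9e-11) and Sparc from 1478 and 1563 to 577 and 536 CPM. The proteoglycans of brain matrix rose instead: Ncan (neurocan) from 964 and 1172 to 3562 and 3925 CPM and Bcan (brevican) from 178 and 207 to 703 and 742 CPM. Tnr, Spp1 (osteopontin) and Tnc (tenascin-C) rose 11.4-fold, 6.55-fold and 2.55-fold.

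**Figure D3:**
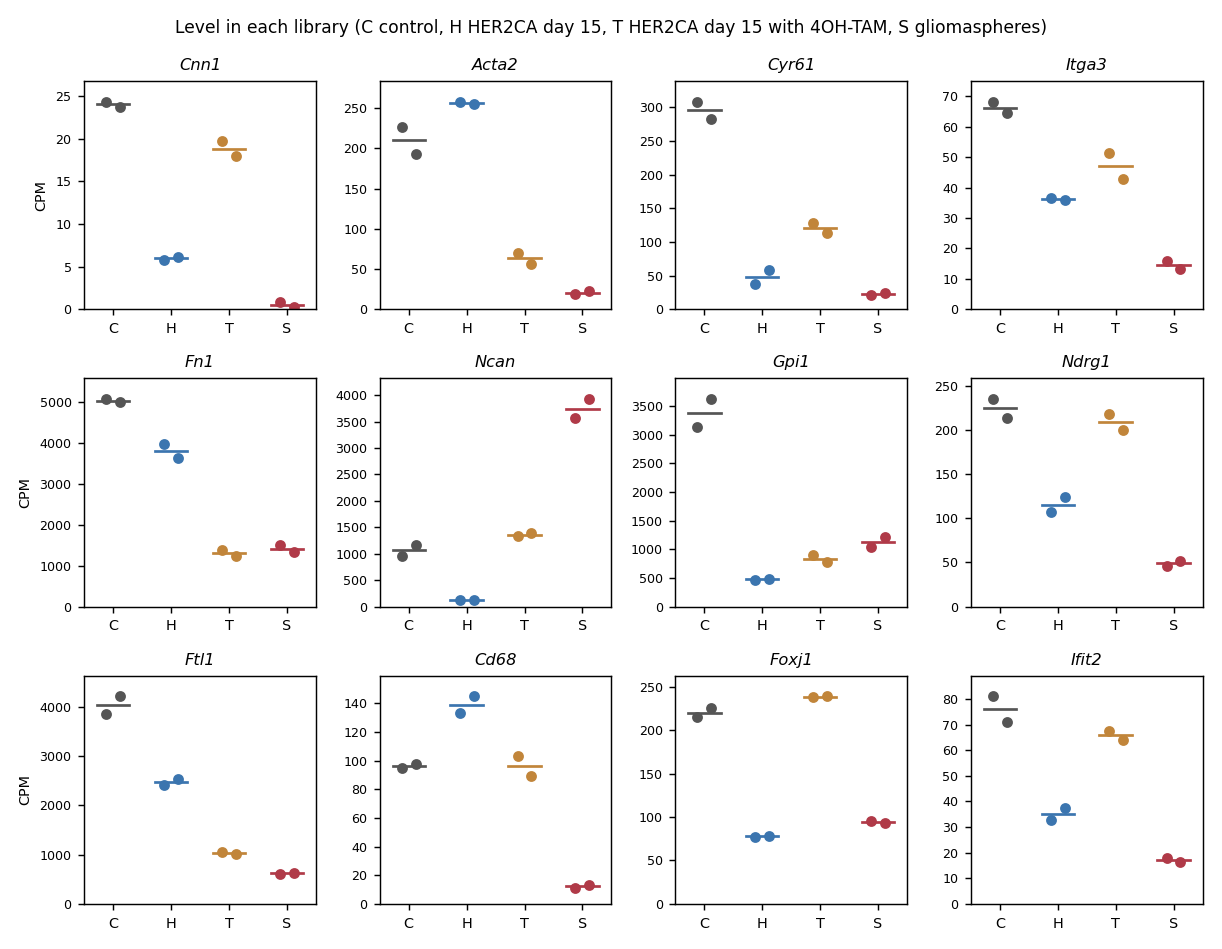
Level in CPM (vertical axes, from 0) of 12 genes in each of the 8 libraries, with 2 points for each group and a line at their mean. C is control, H is HER2CA day 15, T is HER2CA day 15 with 4OH TAM and S is gliomaspheres. All but Ncan are lower in both S libraries than in both C libraries, with Cnn1 at 0.852 and 0.217 CPM and Fn1 at 1503 and 1332 CPM in S.

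Glycolysis and hypoxia genes were mostly lower in gliomaspheres than in controls, though higher than in HER2CA astrocytes of day 15. Of 20 genes of glucose uptake and glycolysis 15 fell and 3 rose, with a median of −0.71, and of 22 hypoxia-response genes 14 fell and 2 rose (4 rose without gliomaspheres B), with a median of −0.66. Gpi1, the second enzyme of glycolysis, fell from 3128 and 3618 to 1031 and 1217 CPM (log2 fold change −1.59, SE 0.0971, edgeR adjusted p = 1.58e-09). Pfkfb3, which makes the activator of phosphofructokinase, fell from 427 and 413 to 94.8 and 104 CPM, and the glucose transporter gene Slc2a3 from 169 and 164 to 50.5 and 43.2 CPM. Pkm and Ldhb rose, each by 0.74 on the log2 scale, while Ldha did not pass. The aldolase gene Aldoc, counted with the astrocytic enzymes and not in this list, rose as given above. Ndrg1, a gene strongly induced by low oxygen, fell from 235 and 214 to 46.5 and 51.9 CPM (log2 fold change −2.20, SE 0.0929), Vegfa from 787 and 756 to 380.1 and 345 CPM and Car9 from 107 and 128 to 56.6 and 62.9 CPM. Car12 rose from 4.66 and 5.12 to 13.4 and 12.3 CPM. Day 15 over control had lower medians still, of −1.39 for glycolysis and −1.36 for hypoxia genes. Against day 15, 13 glycolysis genes were higher in gliomaspheres and 6 lower, with a median of 1.07. For hypoxia genes these were 14 and 7, with a median of 0.89. The core of the hypoxia element, ACGTG, stood in 68.4% of the 19 glycolysis promoters and 70.6% of the 17 hypoxia promoters with a window, against 28.7% of all.

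Lipid synthesis leaned upward. In cholesterol synthesis 19 of 24 rose and 0 fell, with a median of 0.58, and in fatty acid synthesis 10 of 14 rose and 0 fell. Mvk (mevalonate kinase) rose from 9.95 and 11.3 to 29.8 and 30.2 CPM. Scd1, which desaturates fatty acids, rose from 137 and 145 to 394 and 414 CPM. Genes of lipid storage and oxidation were split, with 6 of 19 higher and 8 lower. Besides Plin4, the lipoprotein lipase gene Lpl fell from 58.7 and 62.6 to 19.7 and 25 CPM, and Fabp5 rose from 71.2 and 89.5 to 378 and 301 CPM.

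Stress genes changed in both directions. The ATF4 list, of genes induced when amino acids run short or the integrated stress response is on, had 14 of 30 higher and 9 lower. Its synthesis and transport members rose in 10 of 15 cases and fell in 2. Those that rose include Slc7a11, the cystine transporter, from 4.33 and 4.44 to 30 and 32.4 CPM and Slc7a5, the large neutral amino acid transporter, from 71.6 and 84.5 to 249.7 and 290.1 CPM. Its transcription factors and regulators fell in 7 of 15 cases, rose in 4 and did not pass in 4. The difference between these 2 classes was not tested. Atf3 fell from 24.5 and 24.8 to 5.96 and 6.19 CPM, Ddit3 (CHOP) from 38.6 and 41.2 to 12.4 and 12.8 CPM and Nupr1 from 34.3 and 33.4 to 9.73 and 8.36 CPM. Antioxidant genes under NRF2 fell in 11 of 21 cases and rose in 4. Ftl1, the ferritin light chain, fell from 3858 and 4207 to 610.5 and 626 CPM (log2 fold change −2.71, SE 0.0755, edgeR adjusted p = 6.61e-13), Gstm1 from 1164 and 1221 to 350.4 and 469 CPM and Srxn1 from 208 and 201 to 75 and 77.3 CPM. The unfolded protein response had 6 of 20 higher and 4 lower (2 lower without gliomaspheres A), and tRNA synthetases 5 of 20 higher and 4 lower, with 1 to 3 higher without either control or either gliomasphere library.

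Genes of the translation and respiration machinery mostly moved little. Ribosomal proteins had 14 of 32 higher and 2 lower with a median of 0.15, a count that shifted with the library left out: 8 lower without gliomaspheres A, and 20 higher with 0 lower without gliomaspheres B. It was 8 higher without control A. Oxidative phosphorylation had 13 of 30 higher and 4 lower (8 higher without control A, 7 lower without gliomaspheres A and 2 lower without B), and ribosome biogenesis 12 of 24 higher and 6 lower. The oxidative phosphorylation median was 0.19, and its largest change was the rise of Cox5b, from 39.8 and 39.6 to 155 and 100.1 CPM.

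Most genes of antigen presentation fell. Of interferon-induced genes 15 of 34 fell, where 33.3% of all genes did, with a median log2 fold change of −0.45. In the list of MHC class I and antigen processing genes 13 of 17 fell and 2 rose, with a median of −0.66. The summed level was not lower, at 1495 and 1576 CPM against 1552 and 1815 CPM, since the abundant chaperone gene Calr rose from 750.4 and 784 to 1059 and 1296 CPM. The heavy chain gene H2-K1 fell from 83.6 and 84 to 33.1 and 32 CPM (log2 fold change −1.36, SE 0.0894) and B2m, the invariant light chain, from 233 and 243 to 164 and 174 CPM, while the non-classical gene H2-T23 rose from 3 and 3.05 to 6.55 and 6.08 CPM. Class I genes are close paralogues, so reads may be shared among them. Of the interferon-induced genes 6 rose. Ifit2, which binds viral RNA, fell from 81.1 and 71.2 to 17.8 and 16.5 CPM and Ifit3 from 22.6 and 25.1 to 9.01 and 8.9 CPM. The GTPase gene Gbp3 rose from 6.45 and 7.5 to 25.4 and 26.1 CPM. Cytokine and NF-kB genes had 5 of 22 higher (3 with genes under 5 CPM left out) and 9 lower (5 without control B), and complement genes 4 of 13 higher and 3 lower (1 without gliomaspheres A). C4b rose from 64.8 and 83.9 to 176 and 168 CPM.

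Summed marker levels of microglia, of fibroblasts and mural cells and of ependymal cells were lower in both gliomasphere libraries, and those of endothelial cells and neurons were higher. For microglia and macrophages 10 of 25 fell, 1 rose and 14 did not pass, where 33.3% of all genes fell and 31.5% rose. The share that fell is thus not far from that of all genes. The summed level was 327 and 361 CPM in controls against 192 and 191 CPM in gliomaspheres. Cd68, a lysosomal protein of phagocytes, fell from 94.8 and 97.5 to 11.4 and 13.5 CPM (log2 fold change −2.98, SE 0.108, edgeR adjusted p = 5.49e-12). This 1 gene makes up much of the fall in the sum, and it was at 133 and 145 CPM at day 15. Of the 11 secreted and lysosomal members 2 fell and 9 did not pass. Receptors that define microglia were low throughout, with Csf1r at 8.62 and 10.3 against 6.19 and 5.97 CPM, Cx3cr1 at 6.58 and 6.33 against 3.95 and 4.89 CPM and Ptprc (CD45) at 3.87 and 4.31 against 1.35 and 1.41 CPM. P2ry12 was the 1 that rose, from 0.499 and 0.629 to 3.5 and 2.5 CPM. None of the 25 was at 0 in all 4 libraries. The C1q genes, which microglia make, did not pass: C1qa was at 10.4 and 11.7 against 8.57 and 12.7 CPM. Because microglia express MHC class I, interferon-induced and complement genes, these sums belong beside those lists, and the part they have in those results was not tested.

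Fibroblast and mural cell markers fell in 10 of 18 cases and rose in 2, with sums of 778 and 745 CPM against 325 and 351 CPM. Their falls belong beside those of collagens and contractile genes, several of which are in both lists (Acta2, Tagln, Cnn1, Col1a1 and Col3a1). Defining members were low, with Pdgfrb at 5.79 and 5.75 against 1.75 and 2.06 CPM and Dcn at 2.08 and 0.763 against 0.179 and 0.977 CPM. Fmod, a matrix proteoglycan gene, and Pdgfra were the 2 that rose. Their part in the actin and matrix results was not tested. Ependymal and cilium markers fell in 11 of 16 cases and rose in 0 (2 without gliomaspheres A, 1 without gliomaspheres B), with sums of 294 and 309 CPM against 131 and 130.3 CPM. Foxj1, the regulator of motile cilia, fell from 215 and 225 to 95.4 and 93.5 CPM and Enkur from 17.9 and 17.5 to 2.91 and 3.26 CPM. Of 6 measured endothelial markers 1 rose and 2 fell, but the count depended on the setting, and Flt1 alone reached 10 CPM, at 13.1 and 12.6 against 40.3 and 33.8 CPM. The neuronal sums were 1019.6 and 1020 CPM against 1828 and 1752 CPM.

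Gliomaspheres were also set beside HER2CA astrocytes of day 15. This contrast uses the same gliomasphere libraries as the first, so values are given side by side and neither is support for the other. Of 13605 genes 5196 (38.2%) were higher in gliomaspheres and 5541 (40.7%) lower, which is 78.9% called. The test also asks directly whether the departure from control differed between gliomaspheres and the day 15 cells, because the control term cancels.

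Division genes were higher in gliomaspheres than in both. Mitosis genes summed to 201 and 174 CPM at day 15, about the level of controls, and all 42 were higher in gliomaspheres. Mki67 was at 3.36 and 1.49 CPM at day 15 (gliomaspheres over day 15 log2 6.88, edgeR adjusted p = 5.41e-14). Replication genes had 34 of 38 higher. Cdkn1a was at 1433 and 1528 CPM at day 15, against 523 and 553 CPM in gliomaspheres, and Ccnd1 was at 168 and 157 CPM, below controls.

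The astrocyte list differed widely between the HER2CA cells. It summed to 8244 and 9658 CPM at day 15, lower than in controls and in gliomaspheres, and 33 of 34 genes were higher in gliomaspheres than at day 15, with a median of 2.88. Ndrg2 was at 10.8 and 11.2 CPM at day 15, 449 and 542 CPM in controls and 424 and 522 CPM in gliomaspheres. Oligodendrocyte-lineage genes summed to 478 and 463 CPM at day 15 and 4358 and 4025 CPM in gliomaspheres. Omg was at 0 counts in both day 15 libraries, at least 704-fold lower than in gliomaspheres. Lpo had 1 count at day 15 and 1705 in gliomaspheres, and Btbd17 had 2 counts against 2459. Serpinb11, Lrfn2 and Htr3a were at 0 counts at day 15, with gliomaspheres at least 224-fold, 104-fold and 103-fold higher. ERK outputs summed to 1764 and 1796 CPM at day 15, and 20 of 24 were higher in gliomaspheres.

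The ATF4 and tRNA synthetase genes went the other way. ATF4 genes summed to 1587 and 1629.6 CPM in controls, 8698 and 8963 CPM at day 15 and 1939.5 and 2039.6 CPM in gliomaspheres, and 29 of 30 were lower in gliomaspheres than at day 15. Trib3, an ATF4 target and inhibitor of AKT, was at 2.21 and 1.66 CPM in controls, 187 and 177 at day 15 and 1.97 and 1.09 in gliomaspheres (gliomaspheres over day 15 log2 −6.74, edgeR adjusted p = 2.12e-14). Its level in gliomaspheres was not distinguished from control (edgeR adjusted p = 0.577). Nupr1 was at 657 and 631 CPM at day 15 and Atf4 at 829.9 and 909 CPM. For tRNA synthetases 18 of 20 were lower in gliomaspheres than at day 15, with sums of 9871 and 9996 CPM at day 15 and 2314 and 2425 CPM in gliomaspheres. Cdsn, a gene of corneodesmosomes in skin, was at 782 and 702 CPM at day 15 and 6.1 and 8.25 CPM in gliomaspheres, and Thsd4 was at 108 and 92.9 CPM against 0.314 and 0.868 CPM. Avil was at 52.9 and 49.1 against 0.448 and 0.76 CPM. Ostn had 1375 counts against 1 and Nrip2 365 against 0.

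Some genes lay at near levels in both kinds of HER2CA cells. Myc was at 109.8 and 116 CPM at day 15 and Hmga2 at 62.7 and 61.5 CPM, against 22 and 23 and 12.4 and 11.3 CPM in controls. Neither passed the test between gliomaspheres and day 15 (edgeR adjusted p = 0.86 and 0.879), which does not show that they were equal. Grem1 was at 21.2 and 20.8 CPM and Igfbp3 at 679 and 756 CPM at day 15, near their gliomasphere levels. Cd109, at 601 and 652 CPM, and Col6a1, at 107 and 115 CPM, were low at day 15 as in gliomaspheres. For reference, the libraries labelled 4OH TAM at day 15 summed to 33289.8 and 33626 CPM over the astrocyte list, and held 14.6 and 18.3 CPM of Mki67 and 19.5 and 26.4 CPM of Grm5.

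**Figure D4:**
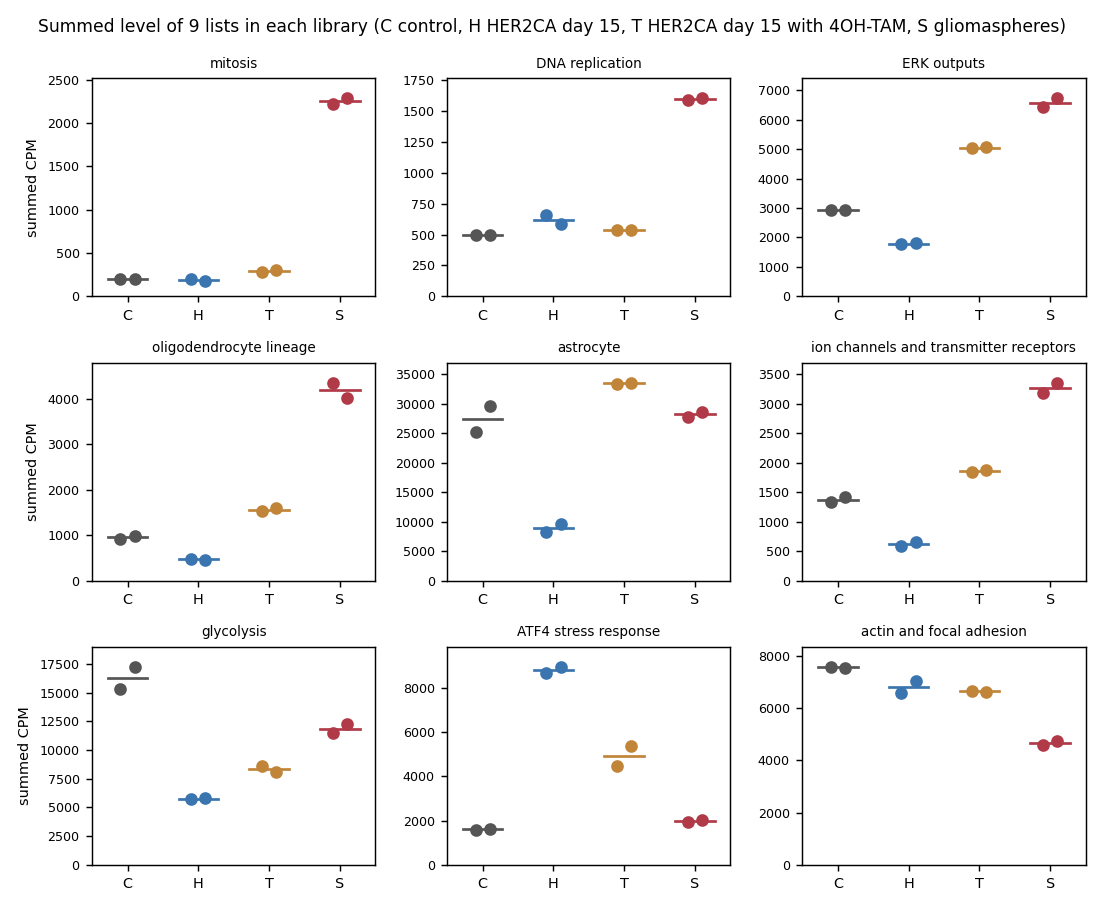
Summed level in CPM (vertical axes, from 0) of 9 gene lists in each of the 8 libraries, with 2 points for each group and a line at their mean. C is control, H is HER2CA day 15, T is HER2CA day 15 with 4OH TAM and S is gliomaspheres. The mitosis sum is 2217 and 2287 CPM in S and 201 to 205 CPM in C, and the ATF4 sum stands at 8698 and 8963 CPM in H.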

How the data were processed

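RNA was extracted with NucleoSpin RNA and made into TruSeq Stranded mRNA libraries, per the labels' protocols. The submitters' processing notes name FastQC, STAR 2.5.3a, featureCounts and mm10 (GRCm38), and no source used here states the strand setting or annotation of the counting. The authors deposited 1 table of raw read counts per gene for the 8 libraries, with 13607 rows, of which 13583 reach 1 CPM in at least 2 libraries, so low genes are scarce in it.

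Samples were grouped by their labels, with 2 libraries in each of 4 groups. Rn45s and Lars2 were removed before scaling, which left 13605 genes and 9487800 to 27815269 counts per library. edgeR 4.0.16 (R 4.3.3) was fitted to all 8 libraries with 1 mean per group, TMM factors and its expression filter, and tested by quasi-likelihood with Benjamini-Hochberg adjustment at 0.05. The fit has 4 residual degrees of freedom. CPM are relative to scaled library size and were computed here, and the SE was derived from the F statistic. With 2 libraries against 2, an exact permutation test cannot go below p = 0.333, so single-gene tests rest on the spread shared across genes. Ratios to groups with 1 to 3 counts have exact 95% Poisson intervals, and groups at 0 were set to 3 counts over the group. These cover counting error only. On simulated counts for gliomaspheres against control (13372 genes), 28% of genes changed 1.25-fold, 86% changed 1.5-fold, 92% changed 2-fold and 98% changed 4-fold were recovered, and 7.32% of calls were false. There 50 genes were changed at each fold, up or down, and all others kept their control level in every group. In the real comparison 64.8% of genes were called, so these shares need not carry over to it.

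The genes named are Yap1, Wwtr1 and Erbb2, the 12 largest called increases and decreases with at least 5 CPM in the higher group and no overlap between groups (ribosomal RNA and clone-named models passed over), the 4 largest called changes in each list, the 6 largest in each direction against day 15, and list members described by role. The members and the 46 lists were chosen with earlier results of these data known. The main fit did not pair libraries by replicate letter. Correlations of deviations from group means ran from -0.0314 to 0.0554, which cannot settle whether a letter marks a shared preparation. Positions come from GENCODE M21 (GRCm38), found for 96.4% of genes, and promoters from RefSeq (GRCm38.p6). Alternatives were other scaling factors, an expression filter of 5 CPM, keeping Rn45s and Lars2, a fit of the 4 libraries alone, a replicate block, a test against a 1.5-fold change, DESeq2 1.42.0 and leaving out each library. Some members of the lists are counted but not reported by name here.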

Additional observations from a re-analysis of the deposited data

Results flagged for a closer look

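Of all counts in gliomaspheres B, 36.1% fell on Rn45s, a ribosomal RNA transcript, and 2.77% on Lars2, both above their share in every other library, in rows left out of the comparisons as reported. With both rows kept, as an alternative, 4427 genes were higher and 4353 lower against control. The library kept the fewest counts for the remaining genes. Whether this bears on any other gene was not tested beyond the values without gliomaspheres B given with the results.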

How the results depend on the processing

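Against a 1.5-fold change instead of no change, 1829 genes were higher and 1543 lower than control, and 3404 higher and 2852 lower than day 15, since that test asks for more. Under the other settings these gene counts stayed within 1.5 times. Counts of list members were less steady. With 1 library left out, 29 moved by more than 1.5 times, or to or from 0, and 707 did not. In all other settings, the 1.5-fold test included, 64 moved and 856 did not. Named genes lost their call in 17 cases with 1 library left out and in 34 under other settings, against 1947 and 2435 cases unchanged. Against control, relative log expression factors gave 4530 higher and 4242 lower, no scaling factors 4082 and 4762, and DESeq2 4200 and 3811. Leaving out 1 library at a time gave 3730 to 4321 higher and 3892 to 4471 lower against control, and 4868 to 5163 higher and 5115 to 5495 lower against day 15. With a replicate block the counts were 4274 higher and 4510 lower against control, and 5178 and 5529 against day 15, so the pairing moved neither by 1.5 times. Values near 0 changed sign. When 1 library was left out, the Hippo list median ran from -0.004 to 0.05, and log2 fold changes against control ran from -0.36 to 0.2 for C1qa, -0.17 to 0.15 for Cdk6, -0.23 to 0.08 for Ndrg2, -2.24 to 2.68 for Ostn, -0.84 to 0.03 for Trib3, -0.24 to 0.16 for Trp53 and -0.01 to 0.05 for Wwtr1. None of these was called. The transcripts that differ between the gliomasphere libraries ran from -2.59 to 0.01 (Malat1), -1.02 to 5.51 (Mir6236) and -2.1 to 5.38 (Rpph1). The Hedgehog list median was -0.01 with upper-quartile scaling and -0.017 without scaling, where Wwtr1 was at -0.01. Cdk6 was at 0.0 with relative log expression factors and 0.02 with DESeq2. The cause was not tested. Changes under 1.5-fold were often missed on simulated data, and gliomaspheres B carries the fewest counts.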
